A study of Rattus norvegicus with 4 samples.

Results

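This account covers 7 genes tied to the actin cytoskeleton and its transcriptional readouts: Ccn2 (also called Ctgf), Ccn1 (Cyr61), Ankrd1, Tagln, Tpm1, Tpm2 and Vcl. Their identifiers are ENSRNOG00000015036 for Ccn2, ENSRNOG00000014350 for Ccn1, ENSRNOG00000018598 for Ankrd1 and ENSRNOG00000017628 for Tagln. Those of Tpm1, Tpm2 and Vcl are ENSRNOG00000018184, ENSRNOG00000016731 and ENSRNOG00000010765. They were chosen by Ensembl gene identifier, and 7 of the 20174 gene probes on the array carried those identifiers, 1 probe per gene. The pairing of identifier and gene name came with that choice and was not checked against an annotation here. Results of these data were already known when the genes were picked, so their values are given as a description without any test.

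RNA came from Rat-1·RasValA1, a rat embryonic fibroblast line that carries the activated Ras allele HrasG12V behind a promoter switched on by IPTG. All 4 cultures were of this line and were kept for 24 h in DMEM with bovine serum albumin and no serum, G418 or hygromycin B. They received nothing further, 5 mM IPTG, 3 µM ZnCl2, or 5 mM IPTG with 3 µM ZnCl2. With 1 array per condition, differences have no replicate check, and no array held cells lacking the inducible allele. IPTG as a chemical and the induction of HrasG12V therefore cannot be told apart, and HrasG12V itself was not measured here.

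YAP and its relative TAZ are co-activators that enter the nucleus of spread, tense cells and act through TEAD factors, and Ccn1, Ccn2 and Ankrd1 are standard readouts of that activity. SRF works with MRTF co-activators, which are released when actin polymerises, and drives many genes of the contractile apparatus, among them Tagln and Vcl. Tropomyosins wrap around actin filaments and stabilise them, and fibroblasts transformed by Ras are known for losing stress fibres.

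Spot intensities were measured by fluorescence, and the signal of each spot is given below above the mean of the blank spots on its array. All 28 values of the 7 probes exceeded the detection limit (the blank mean plus 2 SD). Log2 differences are on the scale of log2(signal + 50) after quantile normalization, which understates the change of dim probes. Repeat spots of the positive controls, compared within each array, put the SD of a log2 difference at 0.14 to 0.28. That SD leaves out variation between arrays. Median signals of Positive Control 2 were 8399 in untreated cells, 13028 under IPTG, 8762 under zinc and 11760 under the combination. Those of Positive Control 1 lay between 13389 and 14838. Both controls are far above the 7 probes, so the error of dimmer spots is not measured by them. Whether the shift in Positive Control 2 bears on the differences below was not tested. The array with IPTG and zinc had a blank mean of 69.8, against 66.0 to 66.5 on the other 3. Its part in the differences below was not tested.

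**Figure D1:**
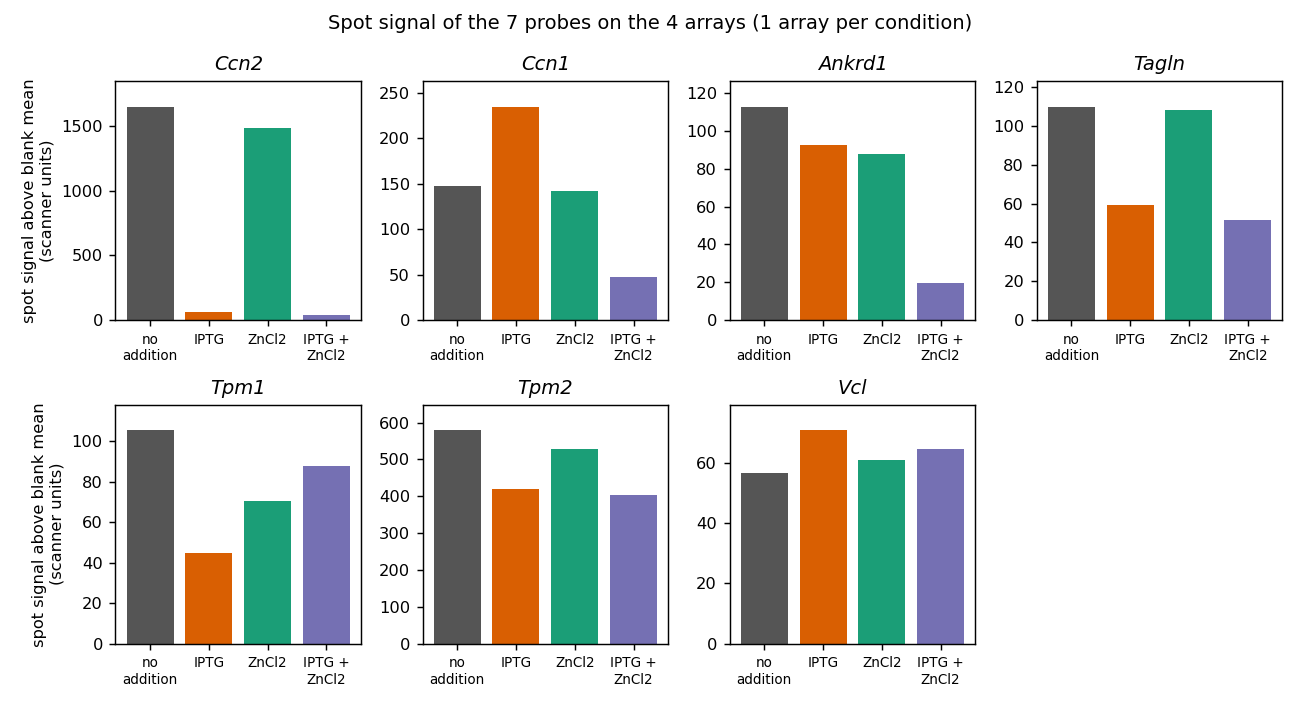
Spot signal above the blank mean, in scanner units, for each of the 7 probes (panels, each with its own axis from 0) on the 4 arrays; each bar is 1 array. Ccn2 is near 0 on both arrays with IPTG, and Ccn1 and Ankrd1 are lowest on the array with IPTG and zinc.

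Ccn2, which encodes a secreted matricellular protein that promotes matrix production and adhesion, was the gene with by far the largest difference. Its signal was 1652 without additions and 1486 with zinc, against 62.0 with IPTG and 37.0 with IPTG and zinc. Both arrays with IPTG were thus far below both arrays without it. The probe was 15.7-fold lower with IPTG in the absence of zinc (log2 difference -3.97) and 20.8-fold lower in its presence (-4.38). The authors' deposited table lists Ccn2 at a normalized intensity of 789.9 in untreated cells and 35.0 under IPTG, a 22.5-fold gap. In the pair given zinc, the authors' deposited table lists 649 and 17.0, a 38.1-fold gap. Less RNA per cell and fewer expressing cells cannot be told apart in such bulk samples, here and below.

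Of 15368 probes detected on at least 1 array, Ccn2 had the lowest value when each probe was ranked by the smaller of its decreases in the IPTG pairs. It also ranked lowest with offset 16, with median scaling and with no background correction, and it was the 2nd lowest of 12781 in the authors' table. With the local background it was the 3rd lowest. Its local background followed the spot, at 935 in untreated cells, 513 under zinc, 101 under IPTG and 98.0 under the combination. Subtracting that background left log2 differences of -3.29 and -4.31. The 24 gene spots around it on the array had a median log2 difference of 0.00 in both IPTG comparisons.

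The zinc differences in Ccn2 were small by comparison. Without IPTG the log2 difference was -0.02, smaller than the repeat-spot SD, although the local background setting gave 0.55. With IPTG it was -0.42, beyond the repeat-spot SD of 0.16 to 0.25 for that pair of arrays. That SD leaves out variation between arrays, and the signals of 37.0 and 62.0 are both close to the blank spots. From highest to lowest, the order was no addition, zinc, IPTG, IPTG with zinc, and the top pair did not differ beyond the repeat-spot SD.

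Ccn1 encodes the close relative of Ccn2, another secreted integrin ligand, and the pair parted in the cells given IPTG alone. The Ccn1 signal was 148 without additions and 142 with zinc. It was 234 with IPTG, the highest of the 4, and 47.1 with IPTG and zinc, the lowest. With IPTG alone Ccn1 was 1.40-fold higher than without additions (log2 difference 0.49), where Ccn2 was 15.7-fold lower. Among all tested probes, 11.3% were as high as Ccn1 or higher in that comparison. With zinc present, Ccn1 was 2.12-fold lower with IPTG (-1.08), and Ccn2 was lower as well. The zinc difference in Ccn1 was 0.00 without IPTG and -1.57 with it, or 2.97-fold lower. In the authors' deposited table, Ccn1 stood at 132.5 under IPTG and 21.7 under the combination, a 6.11-fold gap.

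The promoters of both CCN genes are shown because their transcripts differed in this way and because GGAATG, read on either strand, is the core of the sequence TEAD factors recognise. Each line gives the 250 bases before the annotated start in RefSeq, build GRCr8, minus strand, 5′ to 3′ as transcribed. Capitals mark GGAATG or its reverse complement CATTCC. The Ccn2 window is chr1:22624615-22624864 and the Ccn1 window is chr2:237225690-237225939.
Ccn2: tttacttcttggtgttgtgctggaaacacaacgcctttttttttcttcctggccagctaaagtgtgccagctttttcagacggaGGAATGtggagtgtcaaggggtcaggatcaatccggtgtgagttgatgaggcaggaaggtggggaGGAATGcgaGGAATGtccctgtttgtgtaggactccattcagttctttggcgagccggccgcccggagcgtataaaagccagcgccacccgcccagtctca
Ccn1: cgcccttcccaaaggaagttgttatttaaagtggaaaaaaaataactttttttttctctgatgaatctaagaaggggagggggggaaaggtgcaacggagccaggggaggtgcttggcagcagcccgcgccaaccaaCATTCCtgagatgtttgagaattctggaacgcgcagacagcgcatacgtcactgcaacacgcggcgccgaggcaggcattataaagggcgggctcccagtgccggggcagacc
The Ccn2 window holds 3 copies, starting 166, 101 and 92 bases before the start, and the Ccn1 window holds 1, at 113. Of 33469 windows of the same length, 12.1% hold at least 1 copy and 0.0807% at least 3. Windows were found for 5 of the 7 genes, and Ankrd1 and Tagln had none. Of these 5 windows, 4 hold GGAATG, those of Tpm1 and Vcl being the others. A CArG box, the sequence SRF binds, was in 0 of the 5 and in 501 of all windows (1.5%). The SRF target Tagln could not be examined for it. These matches describe the letters in the windows and say nothing of which factor was bound.

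Ankrd1 encodes a nuclear and sarcomeric ankyrin repeat protein that responds to stretch. Its signal was 113 without additions, 92.5 with IPTG and 87.6 with zinc, and 19.8 with IPTG and zinc. The first 3 arrays lay close together and the fourth stood well below them. The log2 difference for IPTG was -0.18 without zinc and -1.04 with it, a 2.06-fold lower value. The difference for zinc was -0.22 without IPTG and -1.08 with IPTG. In the authors' deposited table the normalized intensity was 54.0 for untreated cells, 52.3 for IPTG, 38.3 for zinc and 9.11 for the combination, which was 5.74-fold below IPTG alone.

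Ccn1 and Ankrd1 thus shared a pattern in which the array with IPTG and zinc was the low one. Both were at least 2-fold below each of the other 3 arrays there, as were 23 of 15368 probes (0.15%), while 0.0716% were that far above all 3. The RMS distance between their centred profiles over the 4 arrays was 0.25 on the log2 scale. Both were picked with results in view, so this share is a description. The 24 and 22 gene spots around them had median log2 differences between -0.01 and 0.00 in these comparisons. With no background correction, Ankrd1 came to -0.89 and -0.92 in place of -1.04 and -1.08, and the Ccn1 IPTG difference with zinc to -0.96. Neither gene was then 2-fold below all 3 other arrays. With the local background, the Ccn1 IPTG difference with zinc was -0.71.

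**Figure D2:**
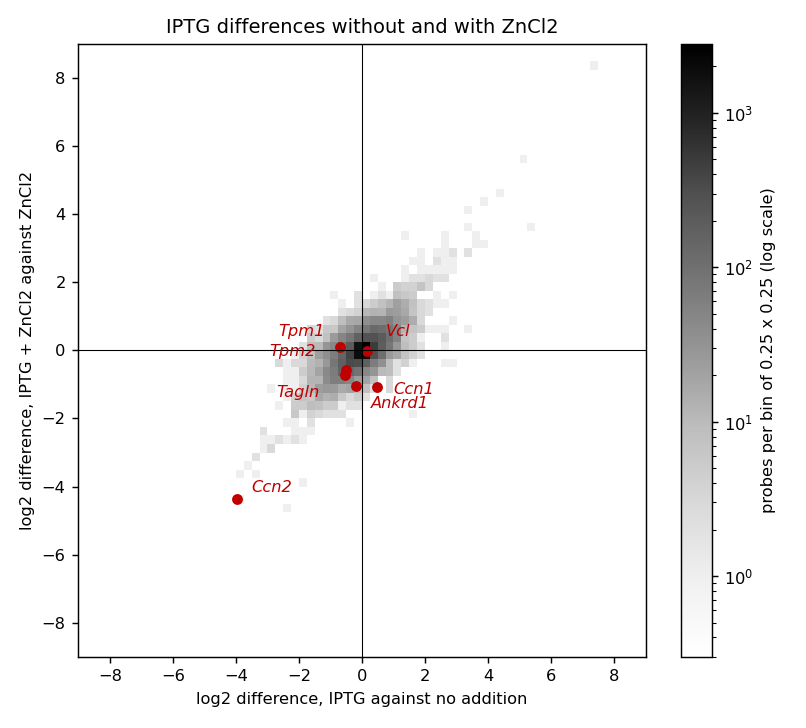
Log2 difference with IPTG in the absence (x axis) and presence (y axis) of zinc; grey squares count the 15368 probes detected on at least 1 array, and red points are the 7 genes. Ccn2 lies at -3.97 and -4.38 in the lower left, the lowest value on the x axis and the 2nd lowest on the y axis, and Ccn1 lies right of 0 on the x axis and below 0 on the y axis.

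Tagln, or SM22, encodes an actin-binding protein of smooth muscle and activated fibroblasts. Its signal was 110 without additions and 108 with zinc, against 59.2 with IPTG and 51.5 with both. The arrays split cleanly by IPTG, with the values close together inside each pair. The IPTG differences were -0.54 without zinc and -0.72 with zinc on the log2 scale, or 1.46-fold and 1.65-fold lower, under the 2-fold limit. Both exceeded the repeat-spot SD, which comes from far brighter control spots within arrays and does not measure the error of this probe between arrays. Among all tested probes, 10.4% were as low or lower in the first comparison and 4.58% in the second. Zinc differences were 0.02 and -0.16, the second within the larger of the repeat-spot SDs for its arrays (0.25) but not the smaller (0.16).

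Tpm2, which encodes beta-tropomyosin, had nearly the same profile as Tagln, with an RMS distance of 0.05 between them. The Tpm2 signal was 579 without additions and 527 with zinc, against 420 with IPTG and 404 with both. The log2 difference for IPTG was -0.52 without zinc and -0.58 with it. Both are beyond the repeat-spot SD, which was at most 0.27 for the first pair and 0.26 for the second. That SD leaves out variation between arrays. Profiles of this shape were common, since 24.9% of the 12780 other probes detected on all 4 arrays came within an RMS of 0.25 of Tpm2 and 17.4% of Tagln. For Ccn1 this was 0.36%, for Ankrd1 1.21%, and for Ccn2 no probe was that close, the nearest being at 0.33.

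The local background bears on Tpm2 on 1 array. Around its spot it was 358 with zinc, against 147 to 164 on the other 3, while the spot signal there was not raised. With the local background subtracted, the IPTG difference in the presence of zinc turned to 0.31 and the zinc difference without IPTG went to -0.79. The IPTG difference without zinc kept its sign in all 6 ways of processing, between -0.55 and -0.22.

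Tpm1 encodes alpha-tropomyosin, which like Tpm2 binds along actin filaments. Its signal was 105 in untreated cells, 44.9 under IPTG, 70.2 under zinc and 87.5 under the combination. The log2 difference for IPTG was -0.71 without zinc and 0.11 with zinc. For zinc it was -0.35 without IPTG and 0.46 with IPTG. The local background moved the same way, at 131 in untreated cells, 81.9 under IPTG, 83.5 under zinc and 130.1 under the combination. The 13 gene spots around it also did, with medians of -0.18 and 0.19 for IPTG and -0.13 and 0.12 for zinc. With the local background subtracted, the values became -0.09 and -0.42 for IPTG and 0.22 and -0.11 for zinc, so the sign turned in every comparison but IPTG without zinc. That value stayed below 0 in all 6 ways of processing, between -0.99 and -0.09. Whether the surroundings of the spot set its signal was not tested.

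**Figure D3:**
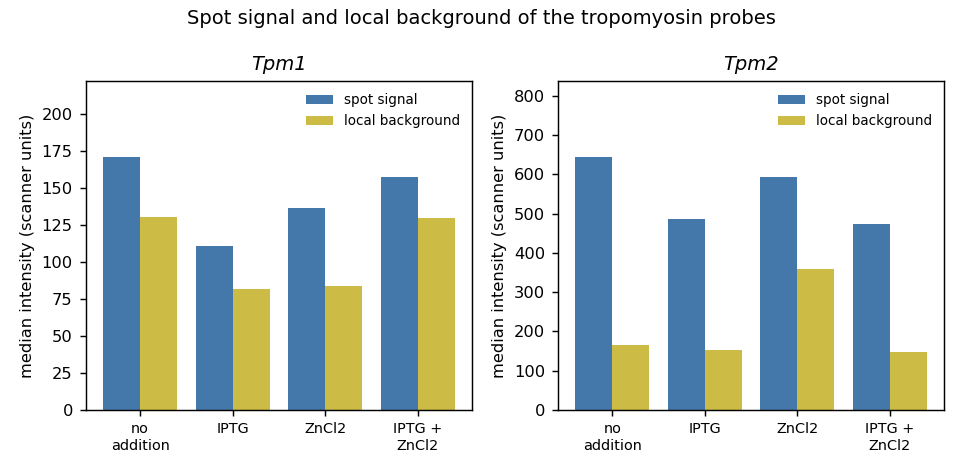
Median spot signal (blue) and median local background (yellow), in scanner units from 0, for the probes of Tpm1 and Tpm2 on the 4 arrays. For Tpm1 both quantities are high on the same 2 arrays, and for Tpm2 the local background is 358 on the array with zinc alone.

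Vcl encodes vinculin, which links integrin adhesions to actin filaments. Its signal was 56.8 in untreated cells, 70.8 under IPTG, 60.9 under zinc and 64.6 under the combination. The arrays with IPTG read slightly higher before normalization, and after it the groups overlapped, with a whole range of 0.17 on the log2 scale. The log2 difference for IPTG was 0.17 without zinc and -0.02 with zinc, and for zinc 0.05 and -0.13. Each of these is smaller than the larger of the repeat-spot SDs, and 70.7% of probes detected on all arrays had a profile within an RMS of 0.25 of it.

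Set side by side, IPTG without zinc left 1 of the 7 genes at least 2-fold lower, namely Ccn2, and none at least 2-fold higher. Of 15023 tested probes, 3.7% were at least 2-fold lower and 3.31% higher. The median log2 difference of the 7 was -0.52, against 0.01 over all tested probes. IPTG with zinc left 3 of 7 at least 2-fold lower, Ccn2, Ccn1 and Ankrd1, where 2.25% of 14439 probes were lower and 2.1% higher. The median of the 7 was -0.72, against 0.00. At least 2-fold lower in both IPTG comparisons was Ccn2 alone among the 7, as were 1.27% of probes, and 1.25% were higher in both. The IPTG comparisons rest on separate arrays, while each shares 1 array with each zinc comparison.

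Zinc without IPTG left 0 of 7 genes at least 2-fold apart, with 0.0142% of 14106 probes lower and 0.0638% higher. The central 95 percent of all probes lay between -0.32 and 0.34 there. Of the 7 values, 6 lay inside those bounds, and Tpm1, at -0.35, lay just outside. Zinc with IPTG left Ccn1 and Ankrd1 at least 2-fold lower, against 0.897% of 15051 probes, and 1.59% were higher. The median of the 7 was -0.16 there, and 6 of 7 were below 0, as were 53.0% of all tested probes. The exception was Tpm1. In the authors' table, 3 of 7 were at least 2-fold lower in that comparison, Ccn2 being the third. There 9.27% of 13595 probes were lower and 4.21% higher.

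The difference of effects, which subtracts the IPTG difference without zinc from that with zinc, was -1.57 for Ccn1 and -0.86 for Ankrd1. At least 2-fold below 0 were 1.41% of 15368 probes, Ccn1 among them, and 2.27% were at least 2-fold above 0. For Ccn2 it was -0.41, for Tagln -0.18, for Tpm2 -0.06, for Vcl -0.19 and for Tpm1 0.82. With a single array in each condition these values cannot be tested.

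Values in the authors' table are scaled differently, carry no offset and cover fewer probes. There the median log2 difference over all tested probes was 0.34 and 0.29 for IPTG without and with zinc, and -0.20 and -0.25 for zinc without and with IPTG. Higher probes made up 70.8% and 73.8% of those at least 2-fold apart by IPTG in that table, against 47.2% and 48.2% after quantile normalization. For zinc the shares were 14.8% and 31.2% in it, against 81.8% and 63.9%. The 81.8% rests on only 9 higher and 2 lower probes of 14106. Median scaling alone left each median within 0.02 of 0, which follows from its design, as it does for quantile normalization. Under median scaling the shares were 53.1% and 67.2% for IPTG and 77.8% and 68.4% for zinc. The 77.8% rests on only 0.0638% of 14106 probes. Ccn2, Ccn1, Ankrd1 and Tagln kept the sign of their IPTG differences in all 6 ways of processing.

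**Figure D4:**
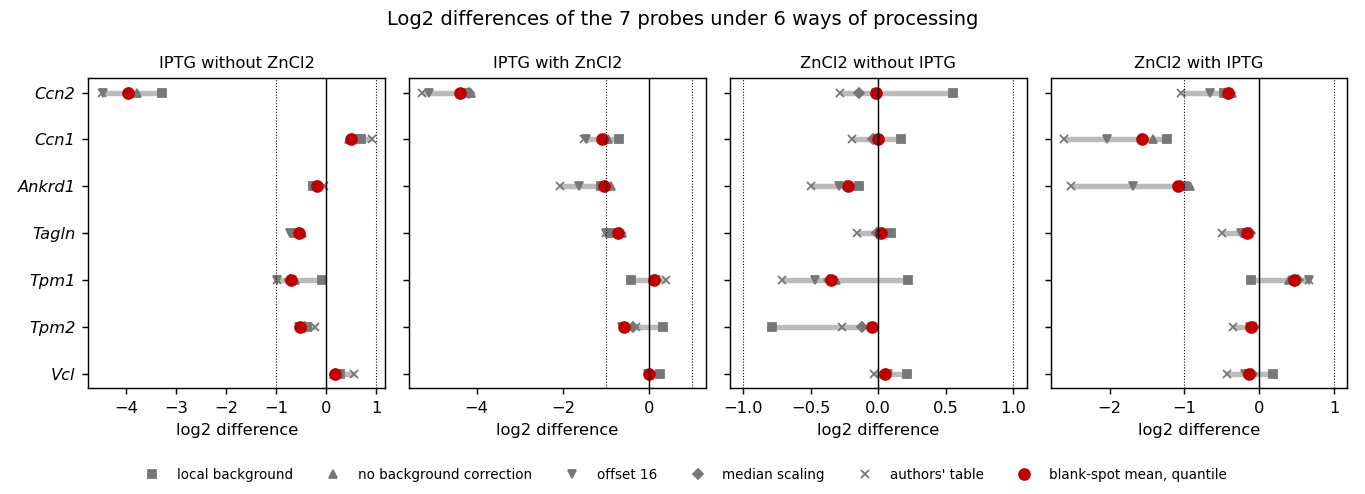
Log2 differences of the 7 genes in the 4 comparisons (panels, each with its own x axis). The red point is the value with the blank-spot mean and quantile normalization, other markers are the alternatives, grey bars span all 6, and dotted lines mark 2-fold; Ccn2 stays beyond 3 log2 units in both IPTG panels, and the Tpm1 bar crosses 0 in 3 of 4.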

How the data were processed

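Total RNA from 4 cultures was hybridised to 4 single-colour arrays, 1 per condition, as amplified amino allyl RNA coupled to Cy5, per the labels' protocols. Per the file headers, each deposited scanner file holds the median intensity of every spot and that of its local surroundings, read at 635 nm at 3 gains and not scaled between arrays. The normalized intensity in the table deposited by the authors was an exact straight line of each array's scanner signal, reaching 0 at the blank-spot mean, with a median of about 25 on every array. Its scale is linear, genes were not centred, and this was found from the values. The direction and order of the arrays follow the labels.

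For this account, the mean of the blank spots (5 percent left out at each end) was subtracted, with a floor of 1. An offset of 50 was added, log2 values were taken, and the 20166 gene probes without a poor-spot mark were quantile normalized (R 4.3.3, limma 3.58.1). The local background was kept as an alternative because its log2 value tracked the log2 signal (r = 0.94 to 0.95 across gene probes on each array). A probe was detected above the blank mean plus 2 SD and entered a comparison if detected on at least 1 of its arrays. The fold calls were checked on simulated data in which only bright probes were changed, by more than the 2-fold limit. That check does not cover changes of dim probes or changes near 2-fold.

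The 7 genes, the lists and the settings were chosen with earlier results of these data known, and each condition had 1 array, so no p-value is given. All 7 genes are named, as the rule for named genes required. That rule also covered 114 other pathway genes in 6 lists, and 31 cell type markers were listed. None of these was analysed here, because 0 of 20174 array identifiers matched the gene table used for names. The same holds for the genes nearest in pattern, which are given as counts. Promoter windows are from RefSeq, build GRCr8. Alternatives were the local background, the raw signal, an offset of 16, median scaling, other filters on dim probes and the table of the authors. Python 3.11.15, pandas 2.3.3 and matplotlib 3.10.9 were used. The number of arrays limits the precision.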

Additional observations from a re-analysis of the deposited data

Results flagged for a closer look

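Several differences pointed one way at one level of the other factor and the opposite way at the other, and the difference was not tested in any of them. Ccn1 was higher with IPTG without zinc and lower with IPTG with zinc, a difference of effects of -1.57 on the log2 scale. Tpm1 changed sign for both IPTG and zinc, with a difference of effects of 0.82, and the local background of its spot moved with it. Vcl changed sign for both factors at -0.19, and Tagln changed sign for zinc at -0.18, both under the larger repeat-spot SD of a difference.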

How the results depend on the processing

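Of the counts of genes at least 2-fold apart, all but 2 stayed within 1.5 times their value under the 7 alternatives. The other filters on dim probes could not move any of these counts, because all 28 values were detected. A change from 3 to 2 also falls within that limit, as with the local background for genes lower with IPTG and zinc against zinc. So does one from 2 to 3, as in the authors' table for genes lower with zinc in the presence of IPTG. With no background correction, the genes at least 2-fold lower with IPTG in the presence of zinc went from 3 to 1, and those lower with zinc in the presence of IPTG from 2 to 1. That setting leaves the blank level in every spot, which shrinks folds by construction, most of all for dim spots. The offset of 50 in the main setting acts in the same way. Of 175 single differences recomputed, 122 moved by less than 0.22 on the log2 scale, the largest SD of repeat spots on an array. The other 53 moved more. A turn of sign was counted only for the 7 main differences of at least 2-fold, and none of those turned. Smaller ones did turn, among them the IPTG differences with zinc of Tpm1, Tpm2 and Vcl. The share of all tested probes at least 2-fold apart, main value first, ranged as follows. For IPTG without zinc it was 7.02%, with 5.23% to 26.2% under the alternatives, and for IPTG with zinc 4.35%, with 3.11% to 18.2%. For zinc without IPTG it was 0.078%, with 0.0545% to 1.8%, and for zinc with IPTG 2.48%, with 1.85% to 13.5%. The authors' table, used without an offset, gave the highest value each time. No paired analysis was possible because each condition had 1 array, and for the same reason no replicate could be left out. The offset of 50 limits the size of the Ccn2 and Ankrd1 differences, whose low values lay 19.8 to 62.0 above the blank mean. For Ankrd1, the IPTG difference with zinc was -1.04 with an offset of 50, -1.64 with 16 and -2.07 in the authors' table.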
